A study of Arabidopsis thaliana with 20 samples.

Results

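The levels of 9 Arabidopsis genes are described across 20 RNA sequencing samples. The genes are the 5 members of the BTB-TAZ family, BT1 to BT5, with AT5G19120, OXS3, HSPRO2 and AT3G04640, and make up 9 of the 34262 genes in the files. They were chosen as a set by measured values of these samples. In some of them, the difference between dwarf and non-dwarf plants changed between plants with and without a transgene. That difference of differences is called the interaction here, the dwarf effect in T+ minus the dwarf effect in Gen2 on the log2 scale. It rests on the T+ and Gen2 samples, so every value that uses those samples is given for the 9 genes as a description, with no test. Gen1 dwarf and WT samples did not enter the choice, and their comparison was tested.

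RNA came from aboveground tissue of bolting plants in 6 groups, all labelled Col-0 by source. T+ plants carry a PPD3 overexpression transgene (genotype PPD3-OX T+) and were dwarf (n = 3) or normal (n = 3). Gen1 plants (PPD3-OX null Gen1, dwarf, n = 3) are siblings of T+ plants that lack the transgene, and Gen2 plants (PPD3-OX null Gen2) are their progeny, dwarf (n = 5) or large (n = 3). WT plants (n = 3) have no transgene history in the labels, and the ecotype of WT 3 is written Col-1. No source used here gives the promoter of the transgene, the number of independent lines, the plants per sample or the harvest hour. P-values therefore measure the spread between these samples.

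BTB-TAZ proteins join a BTB domain, which binds the ubiquitin ligase scaffold CUL3, to a TAZ zinc finger and a calmodulin-binding tail. BT2 is the best known of them: its mRNA follows the day and falls with sugar supply, and BT1 and BT2 restrain nitrate uptake genes. HSPRO2 binds the energy-sensing kinase SnRK1, OXS3 is a nuclear stress tolerance factor, AT5G19120 is annotated as a eukaryotic aspartyl protease family protein and AT3G04640 as a glycine-rich protein.

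Gene counts per sample ran from 45728485 to 117753467, and 21703 genes passed the filter on low counts, all 9 described genes among them. Levels are given in CPM, edgeR's counts scaled to a common library size. T+ normal 1 stood apart from the other libraries, with a mean Pearson r of 0.959 to the other 19 against 0.969 to 0.977 for the others, and 21742 genes had a count in it, the lowest number. PPD3, the check of the labels, reached means of 591 ± 189 and 700 ± 97.4 CPM in the dwarf and normal T+ groups (SD, n = 3 each) and of 99.0 to 143 CPM in the groups without the transgene. Summed leaf markers (RBCS1A, RBCS2B, CAB1 and RCA) were at 23139 to 31530 CPM in T+ normal and 13967 to 16004 CPM in T+ dwarf, and at 18154 to 29362 CPM in Gen2 large and 13677 to 17835 CPM in Gen2 dwarf. All 4 leaf markers were lower in T+ dwarf than in T+ normal (adjusted p at most 0.0157, edgeR's quasi-likelihood test, adjusted by Benjamini and Hochberg's method over all tested genes). The 5 floral markers summed to 0.765 to 4.17 CPM. Of these, AP1, AP3 and PI were called higher in T+ dwarf than in T+ normal and AG lower (adjusted p at most 0.0419), with AP1 at 0.197 to 1.05 CPM against 0 to 0.0130 CPM and AG at 0.196 to 0.506 CPM against 0.945 to 1.55 CPM. AG was also called lower in Gen2 dwarf than in Gen2 large. The part of leaf and floral markers in the results below was not tested. The 9 root markers summed to 0.0604 to 0.551 CPM, with EXPA7, RSL4 and CASP5 at 0 in all 20 samples. In bulk tissue, fewer cells of a type and less RNA per cell cannot be told apart.

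BT2, on chromosome 3 of TAIR10.1 from 17907767 to 17910738, had the widest range of the 9 genes. It was at 282, 154 and 326 CPM in T+ normal and at 20.5, 19.4 and 14.2 CPM in T+ dwarf. Gen1 dwarf samples had 27.8, 13.6 and 23.5 CPM and WT samples 31.97, 21.7 and 60.9 CPM. The Gen2 dwarf samples had 16.7, 30.8, 73.2, 26.9 and 65.1 CPM and the Gen2 large samples 45.6, 41.4 and 47.6 CPM. All 3 T+ normal samples lay above the other 17, the highest of which was Gen2 dwarf 3, while dwarf and large samples of Gen2 overlapped. Here and below, the share of all tested genes with 1 group apart from all other samples was not computed. Nor was the share without overlap between dwarf and non-dwarf groups of T+ or Gen2. The dwarf effect was −3.82 ± 0.54 (log2, SE) in T+ and −0.07 ± 0.43 in Gen2, so the interaction of −3.74 ± 0.68 held no opposite effect in Gen2. Without Gen2 dwarf 3 the Gen2 value was −0.36, and without Gen2 dwarf 1 it was 0.11. Against WT, BT2 differed by 2.74 ± 0.51 in T+ normal and 0.23 ± 0.48 in Gen2 large.

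BT5, on chromosome 4 from 17670481 to 17672353, followed BT2 in T+ at a lower level. T+ normal samples had 34.2, 23.5 and 40.9 CPM and T+ dwarf samples 5.66, 3.27 and 4.26 CPM. Gen1 dwarf samples had 12.2, 3.73 and 5.56 CPM and WT samples 5.31, 4.40 and 13.2 CPM. Gen2 dwarf samples had 7.92, 8.86, 14.9, 5.30 and 22.5 CPM and Gen2 large samples 5.49, 5.08 and 4.29 CPM. T+ normal samples were again above the other 17, by a narrow margin over Gen2 dwarf 5. The dwarf effect was −2.90 ± 0.55 in T+ and 1.27 ± 0.48 in Gen2, and Gen2 dwarf 4 was the 1 dwarf sample inside the Gen2 large range. Without Gen2 dwarf 5 the Gen2 value was 0.90. BT5 overlaps the opposite-strand gene AT4G37608 by 151 bp, and no source used here says whether the counting separated reads by strand. AT4G37608 stayed at 3.89 to 7.62 CPM in the 20 samples.

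BT1, BT3 and BT4 did not share this pattern, and the description of the family as reversed does not hold for them. Their interactions were −0.01 ± 0.30, −0.22 ± 0.21 and −0.44 ± 0.19, in that order. BT1, on chromosome 5 from 25333172 to 25335570, had 44.1, 29.3 and 62.6 CPM in T+ normal and 56.2, 59.4 and 61.2 CPM in T+ dwarf. Gen2 dwarf samples had 54.7, 54.5, 44.5, 34.6 and 52.4 CPM of BT1 and Gen2 large samples 34.6, 41.6 and 33.9 CPM. Both pairs of groups overlapped for BT1, and its dwarf effects were 0.38 ± 0.22 in T+ and 0.39 ± 0.20 in Gen2.

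BT3, on chromosome 1 from 1706736 to 1709360, was the member with the narrowest range, from 5.51 to 10.06 CPM over the 20 samples. It was lowest in Gen2 large, at 6.05, 5.58 and 5.51 CPM, and these 3 samples lay below all 17 others. The nearest of the others was WT 3 at 6.32 CPM. The dwarf effect of BT3 was 0.23 ± 0.16 in T+ and 0.45 ± 0.14 in Gen2. BT4, on chromosome 5 from 26930539 to 26933352, was at 62.9, 92.2 and 66.8 CPM in T+ dwarf and at 120, 82.3 and 93.2 CPM in T+ normal, with overlap. The Gen2 samples of BT4 spanned 83.5 to 99.2 CPM in dwarf and 88.4 to 92.4 CPM in large plants, and the dwarf effects were −0.41 ± 0.14 in T+ and 0.03 ± 0.13 in Gen2. BT4 and FH6 overlap by 18 bp at their ends.

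Per kilobase of exon, the BT family changed its order between groups. In WT, BT4 led with 35.5 ± 2.08 CPM per kb (SD, n = 3), followed by BT1 at 23.7 ± 0.435, BT2 at 14.6 ± 7.75, BT5 at 5.31 ± 3.38 and BT3 at 3.65 ± 0.501. In T+ normal, BT2 led with 96.9 ± 34.0 CPM per kb, and BT4 at 39.5 ± 7.77 came next, ahead of BT5 at 22.9 ± 6.10, BT1 at 20.6 ± 7.58 and BT3 at 3.56 ± 0.238. The neighbours BT5 and BT1 in that order did not differ beyond their spread. The 5 genes summed to 183 ± 51.6 CPM per kb in T+ normal and to group means between 70.5 and 90.2 CPM per kb elsewhere. BT2 made up 52.0 ± 4.50% of the sum in T+ normal, 17.0 ± 6.78% in WT and 9.77 ± 1.80% in T+ dwarf.

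**Figure D1:**
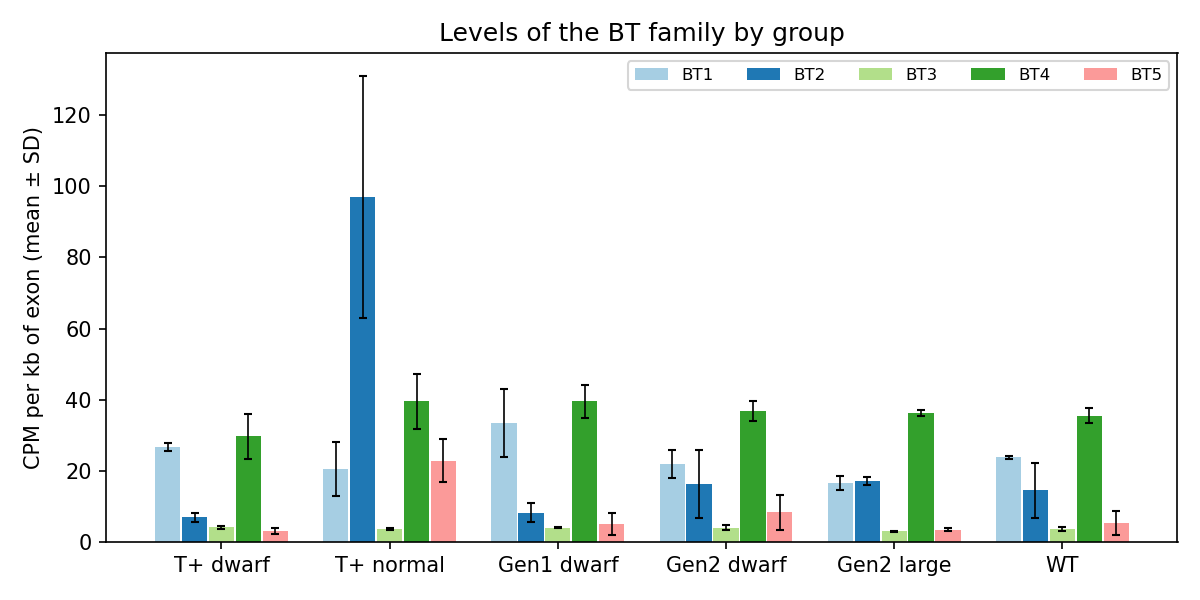
Mean level of BT1 to BT5 in the 6 groups, in CPM per kilobase of exon on a linear axis from 0. Bars are means and error bars SDs over 3 samples (5 for Gen2 dwarf); BT2 stands at 96.9 in T+ normal and between 6.88 and 17.1 in the other groups.

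AT5G19120, on chromosome 5 from 6414488 to 6415907, was at 76.0, 47.3 and 98.2 CPM in T+ normal and at 11.5, 13.4 and 7.30 CPM in T+ dwarf. Gen2 dwarf samples had 12.1, 13.9, 28.2, 16.1 and 15.1 CPM, all above the Gen2 large samples at 10.2, 10.9 and 11.5 CPM. Gen1 dwarf samples had 16.6, 6.04 and 16.5 CPM and WT samples 11.3, 12.3 and 22.2 CPM. T+ normal was above the other 17 samples, and neither pair of dwarf and non-dwarf groups overlapped, in samples on which the genes were chosen. The dwarf effect was −2.78 ± 0.41 in T+ and 0.66 ± 0.36 in Gen2, and it was 0.40 in Gen2 without Gen2 dwarf 3.

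OXS3 (AT5G56550), on chromosome 5 from 22895616 to 22896734, had 84.5, 36.5 and 70.0 CPM in T+ normal and 11.3, 9.94 and 7.53 CPM in T+ dwarf. Gen1 dwarf samples were at 14.9, 10.7 and 13.6 CPM and WT samples at 9.44, 13.1 and 21.1 CPM. Gen2 dwarf samples were at 6.70, 12.1, 25.3, 11.8 and 23.9 CPM and Gen2 large samples at 11.0, 8.38 and 6.50 CPM, so Gen2 dwarf 1 fell within the large range. T+ normal exceeded the other 17 samples. The dwarf effects of OXS3 were −2.73 ± 0.45 in T+ and 0.89 ± 0.39 in Gen2.

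HSPRO2 (AT2G40000), on chromosome 2 from 16700490 to 16702336, had the interaction of largest size among the 9 genes, −4.38 ± 0.90. T+ normal samples had 73.5, 46.8 and 126 CPM and T+ dwarf samples 18.5, 13.5 and 21.4 CPM. Gen2 dwarf samples had 22.1, 22.4, 101, 29.4 and 123 CPM and Gen2 large samples 12.5, 12.5 and 14.8 CPM. Neither pair of groups overlapped, yet Gen2 dwarf 3 and 5 lay far above the other 3 Gen2 dwarf samples. WT spread as well, at 22.5, 40.2 and 72.3 CPM, against 33.3, 19.3 and 37.6 CPM in Gen1 dwarf. Gen2 dwarf 3, Gen2 dwarf 5 and WT 3 exceeded the lowest T+ normal sample. The dwarf effects were −2.21 ± 0.66 in T+ and 2.18 ± 0.62 in Gen2, the latter 1.73 without Gen2 dwarf 5. Against WT, HSPRO2 differed by −1.76 ± 0.65 in Gen2 large and by 0.87 ± 0.63 in T+ normal. Without WT 3 these values were −1.241 and 1.398, so the order of their sizes rests on that sample.

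AT3G04640, on chromosome 3 from 1260906 to 1261683, had 90 to 1801 counts per sample. T+ normal samples had 4.57, 3.88 and 15.5 CPM and T+ dwarf samples 1.59, 1.42 and 2.45 CPM. Gen2 dwarf samples had 4.70, 2.12, 6.85, 3.08 and 15.97 CPM and Gen2 large samples 1.97, 2.29 and 1.39 CPM. The T+ groups did not overlap and the Gen2 groups did, and 1 sample in each of T+ normal and Gen2 dwarf was far above its group. The dwarf effects were −2.13 ± 0.63 in T+ and 1.80 ± 0.58 in Gen2. Without T+ normal 3 the first was −1.24 and the interaction −3.03, against −3.93 ± 0.86 with all samples. Without Gen2 dwarf 5 the second was 1.16. Against WT, it differed by −1.58 ± 0.62 in Gen2 large and by 0.50 ± 0.60 in T+ normal, and the latter turned to −0.39 without T+ normal 3.

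The following differences all share the WT samples. T+ normal was above WT by 2.11 ± 0.53 in BT5, 2.28 ± 0.40 in AT5G19120 and 2.13 ± 0.44 in OXS3, with no overlap. The value of BT5 was 2.77 without WT 3 and 1.845 without WT 2. T+ dwarf lay below all 3 WT samples in BT2 (−1.08 ± 0.49), HSPRO2 (−1.34 ± 0.64) and AT3G04640 (−1.63 ± 0.62), and above them in BT1 (0.17 ± 0.22). Gen2 large lay below all 3 WT samples in BT1 (−0.51 ± 0.22), BT3 (−0.31 ± 0.16), HSPRO2 and AT3G04640. For T+ normal, T+ dwarf and Gen2 large against WT, the share of all tested genes without overlap was not computed. It was 20.2% for Gen1 dwarf against WT, also with 3 samples each. Gen2 dwarf overlapped WT in all 9 genes, with differences between −0.12 ± 0.20 for BT1 and 0.65 ± 0.47 for BT5. By group mean, the order from the top was T+ normal, Gen2 dwarf, WT and Gen1 dwarf in BT5, AT5G19120, OXS3, HSPRO2 and AT3G04640. Gen2 dwarf, WT and Gen1 dwarf, the middle of that order, overlapped in each of the 5 genes except that AT3G04640 did not overlap between WT and Gen1 dwarf.

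**Figure D2:**
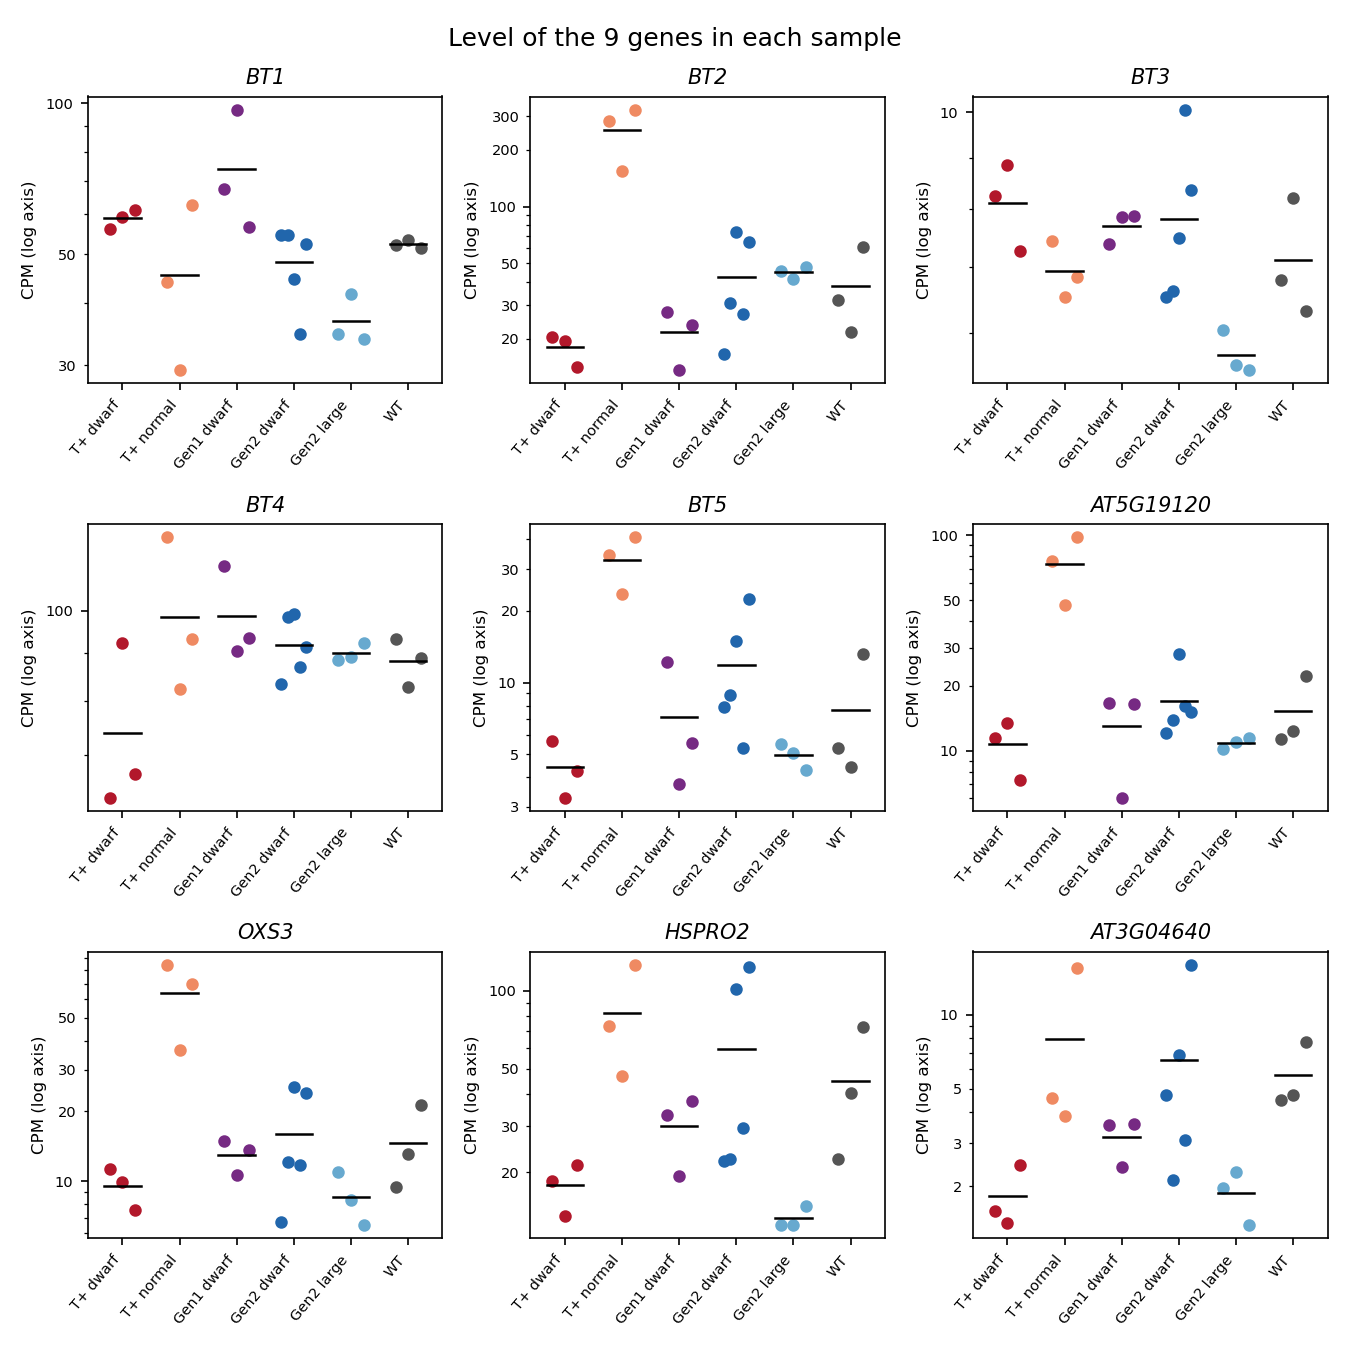
CPM of the 9 genes in each of the 20 samples, 1 panel per gene, on log axes whose range differs between panels. Points are samples and lines are group means; BT2, BT5, AT5G19120 and OXS3 have all 3 T+ normal samples on top, and HSPRO2 and AT3G04640 have high Gen2 dwarf samples too.

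Genes were chosen on their interactions, so the gap in size among the 9 describes that choice and not all tested genes. The smallest of the 6 beyond it was AT5G19120 at −3.44, and the nearest on the other side was BT4 at −0.44 ± 0.19. Leaving out T+ normal 1, the library that stood apart, gave interactions of −3.66 for BT2, −4.14 for BT5, −3.42 for AT5G19120, −3.36 for OXS3, −4.46 for HSPRO2 and −4.21 for AT3G04640. Of the 6, HSPRO2, AT3G04640, BT5, OXS3 and AT5G19120 had a positive dwarf effect in Gen2, and BT2 did not.

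**Figure D3:**
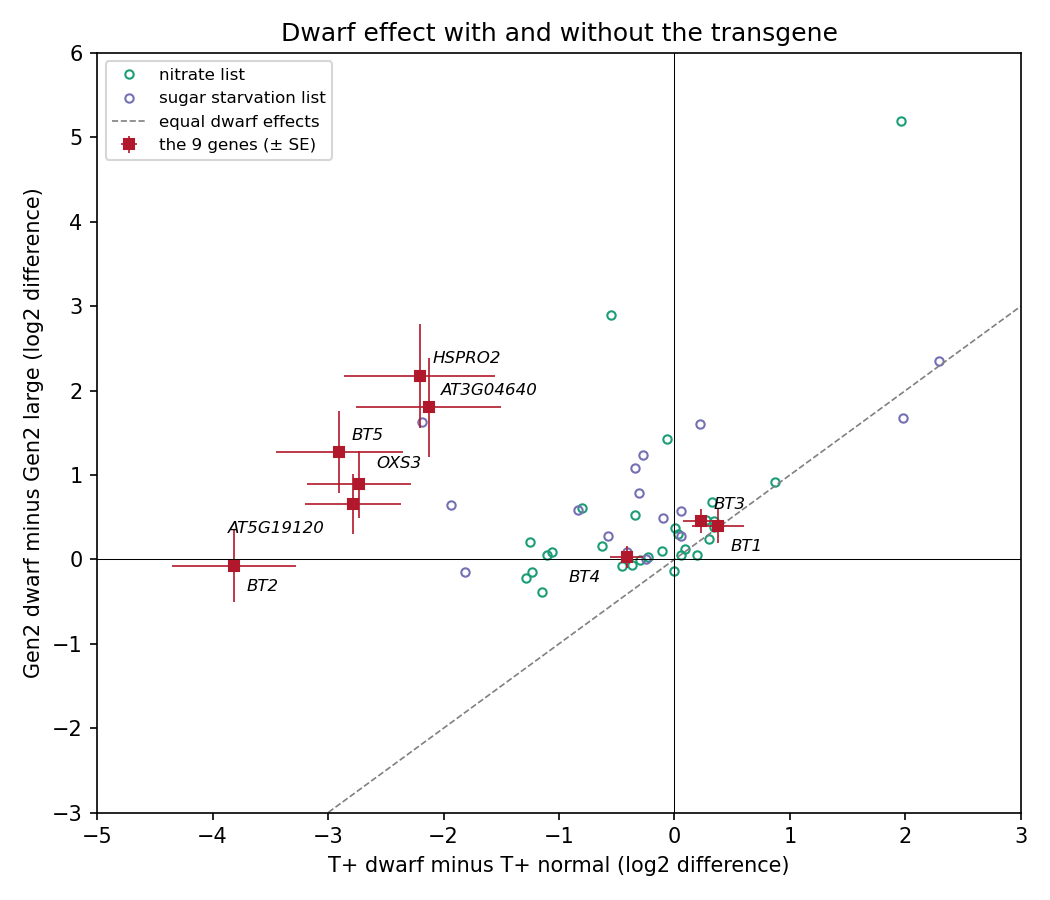
Dwarf effect in Gen2 (y axis, log2 difference, Gen2 dwarf minus Gen2 large) against that in T+ (x axis, log2 difference, T+ dwarf minus T+ normal). Red squares are the 9 genes with SEs, open circles the nitrate and sugar starvation lists, and the dashed line marks equal effects; BT1, BT3 and BT4 lie near it, and the other 6 lie to its left.

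Gen1 dwarf against WT asks whether the genes differ in transgene-free dwarf siblings. None of the 9 was called by edgeR, against 2.01% of all tested genes. Of the 9, 1 had an unadjusted p under 0.05, against 3718 of the 21703 genes tested. DESeq2 also called 0, with 1 at an unadjusted p under 0.05. BT1, at 67.5, 97.2 and 56.6 CPM in Gen1 dwarf and 52.2, 53.4 and 51.5 CPM in WT, had the lowest p, with a difference of 0.49 ± 0.22 (edgeR adjusted p = 0.264). All 3 Gen1 samples of BT1 were above all WT samples. AT3G04640, at 3.55, 2.39 and 3.60 CPM against 4.51, 4.70 and 7.77 CPM, lay below WT in all 3 samples, with −0.83 ± 0.61 (adjusted p = 0.505). These 2 of 9 had groups without overlap, where 20.2% of all tested genes did (12% higher and 8.24% lower).

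The other members overlapped between Gen1 dwarf and WT. BT2 differed by −0.82 ± 0.49 (edgeR adjusted p = 0.405) and HSPRO2 by −0.58 ± 0.63 (adjusted p = 0.671). BT5 at −0.09 ± 0.52, AT5G19120 at −0.22 ± 0.39 and OXS3 at −0.16 ± 0.43 were close to 0 with wide errors, and each changed sign when WT 3 was left out. BT3 at 0.12 ± 0.16 and BT4 at 0.16 ± 0.14 had the smallest errors of the 9. In a simulation on these libraries, edgeR recovered 80% of 2-fold and 97% of 4-fold changes in genes with an average log2 CPM above 0. These are averages over such genes. The share for members with wide errors, such as HSPRO2 and BT5, was not measured. The lowest adjusted p of any member over 13 settings was 0.207, and a p that misses the threshold does not show that levels were equal.

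**Figure D4:**
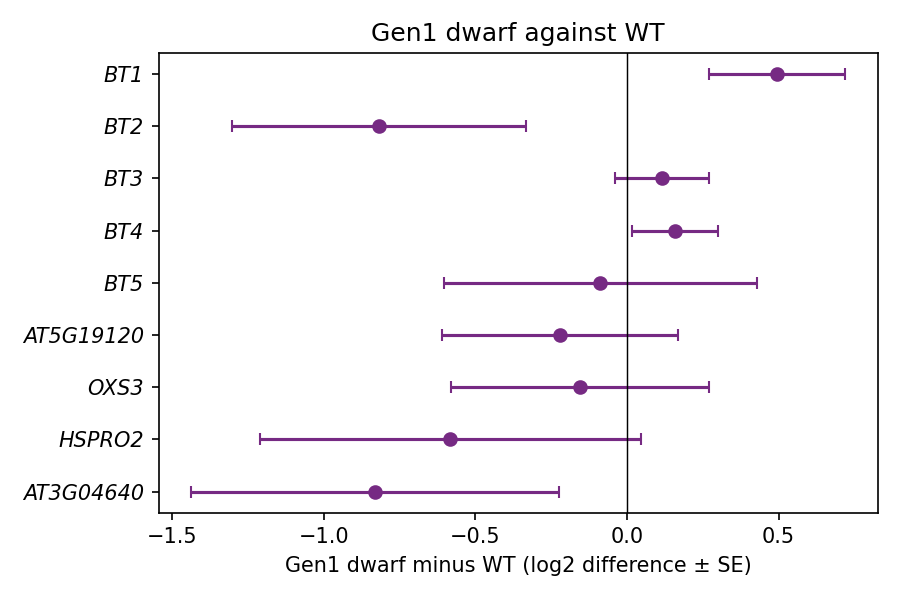
Difference between Gen1 dwarf and WT for the 9 genes, as log2 difference with SE (n = 3 each). BT1 is highest at 0.49 and AT3G04640 and BT2 are lowest at −0.83 and −0.82; no gene was called.

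The same 6 genes also had positive correlations with each other among samples. Across the 20 samples, Pearson r of log2 CPM between their 15 pairs ran from 0.547 to 0.921, with a median of 0.834. Without T+ normal the range was 0.459 to 0.898 over 17 samples (median 0.674), and for deviations from group means it was 0.364 to 0.881 (median 0.720). The strongest pair outside T+ normal was HSPRO2 with AT3G04640, at 0.898, and the weakest was BT2 with AT3G04640, at 0.459. The 21 pairs with BT1, BT3 or BT4 had a median r of 0.094 over 20 samples and of 0.127 without T+ normal. These points share libraries and groups, and the values are descriptions. The 6 genes were chosen on T+ and Gen2 samples. Their high r over the 20 samples, and the contrast with the 21 pairs, follow in part from that choice. The values without T+ normal still use T+ dwarf and Gen2 samples. The r of pairs among all tested genes was not computed.

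Genes with the most similar profile, by Pearson r over the 20 samples, differed between members. For BT2 they were AT2G20670 (0.942), AT5G11070 (0.938) and the carbonic anhydrase CA2 (0.935), and for AT5G19120 they were AT3G18773 (0.960), AT3G59940, a kelch repeat F-box gene (0.930), and AT2G20670 (0.928). OXS3 was most like AT5G61590, a wax synthesis regulator also named DEWAX (0.946), AT1G04770 (0.941) and AT1G10150 (0.937), while BT5 was most like OXS3 itself (0.900), ATCRT1 (0.894) and AT4G26288 (0.885). HSPRO2 was most like AT1G72940 (0.952), AT1G72920 (0.934) and AT1G23710 (0.921), and AT1G23710 (0.943) led for AT3G04640 too, before NUDT21 (0.929) and AT5G43620 (0.928). HSPRO2 and AT3G04640 kept r of at least 0.917 with their 3 closest genes without T+ normal, and AT5G19120 with AT2G20670 fell to 0.641. For BT1 the closest genes were AT1G28600 (0.813), GSTF5 (0.813) and AT1G54020 (0.801). For BT3 they were UMAMIT38 (0.903), SCL14 (0.896) and AT4G35750 (0.862), and for BT4 AT5G59260 (0.782), AT2G04230 (0.769) and AT3G11470 (0.750).

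Windows of 250 bp upstream of the annotated starts were searched on both strands for the evening element AAATATCT, the G-box CACGTG, the TATCCA element TATCCA and the I-box GATAAG, motifs known from clock, light and sugar control. They are shown for the 3 members with most matches among those led by T+ normal, with matches in capitals in either orientation. Sequences are from the RefSeq TAIR10.1 genome, read 5′ to 3′ on the strand of the gene.
BT2, chr3:17910739-17910988, minus strand: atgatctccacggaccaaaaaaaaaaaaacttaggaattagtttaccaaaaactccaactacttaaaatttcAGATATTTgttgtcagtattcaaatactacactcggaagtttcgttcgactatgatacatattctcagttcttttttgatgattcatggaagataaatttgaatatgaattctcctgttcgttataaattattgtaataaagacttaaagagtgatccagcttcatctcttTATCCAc
BT5, chr4:17672354-17672603, minus strand: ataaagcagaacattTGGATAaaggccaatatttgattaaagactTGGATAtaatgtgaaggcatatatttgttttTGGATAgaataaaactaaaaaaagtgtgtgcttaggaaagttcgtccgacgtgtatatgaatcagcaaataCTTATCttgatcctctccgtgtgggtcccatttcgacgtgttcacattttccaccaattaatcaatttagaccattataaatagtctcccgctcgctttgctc
AT5G19120, chr5:6414238-6414487, plus strand: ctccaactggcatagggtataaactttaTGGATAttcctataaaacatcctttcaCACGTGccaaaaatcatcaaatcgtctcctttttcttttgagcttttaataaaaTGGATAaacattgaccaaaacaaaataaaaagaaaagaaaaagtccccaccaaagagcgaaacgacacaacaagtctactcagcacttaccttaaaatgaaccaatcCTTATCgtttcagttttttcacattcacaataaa

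The TATCCA element was in BT2 (1 match), BT5 (3 matches) and AT5G19120 (2 matches). It was in 13.6% of the 27443 windows of protein-coding genes, and in 14.1% of the 20975 of these whose genes were tested. The evening element was in BT1 and BT2 (4.79% of windows), the G-box in AT5G19120 (6.49%), and the I-box in BT1, BT5, AT5G19120 and HSPRO2 (12.3%). No match was found in the windows of BT3, BT4, OXS3 and AT3G04640. A match is a description of the letters and not a binding site.

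AT3G04640 lies between WDL1, 34 bp away, and AT3G04650, a divergent gene annotated as an FAD/NAD(P)-binding oxidoreductase. The 173 bp between AT3G04640 and AT3G04650, shown because the neighbours behaved differently, are printed on the plus strand with no capitals, as none of the 4 motifs was found.
AT3G04640 to AT3G04650, chr3:1261684-1261856, plus strand: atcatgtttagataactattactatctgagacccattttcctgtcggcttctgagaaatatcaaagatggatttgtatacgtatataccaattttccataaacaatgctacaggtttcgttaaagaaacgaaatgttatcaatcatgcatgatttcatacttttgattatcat

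AT3G04650 was at 36.4, 31.9 and 31.0 CPM in Gen1 dwarf and at 5.40, 4.57 and 6.00 CPM in WT. It rose in Gen1 dwarf by 2.64 ± 0.16 (edgeR adjusted p = 1.55e-08), in 3 of 3 samples, and in all 17 samples outside WT it was at 27.8 to 54.2 CPM. AT3G04640 had no such step between WT and the other groups. WDL1 ranged from 8.87 to 23.1 CPM over the 20 samples and differed by −0.12 ± 0.20 between Gen1 dwarf and WT (adjusted p = 0.810).

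**Figure D5:**
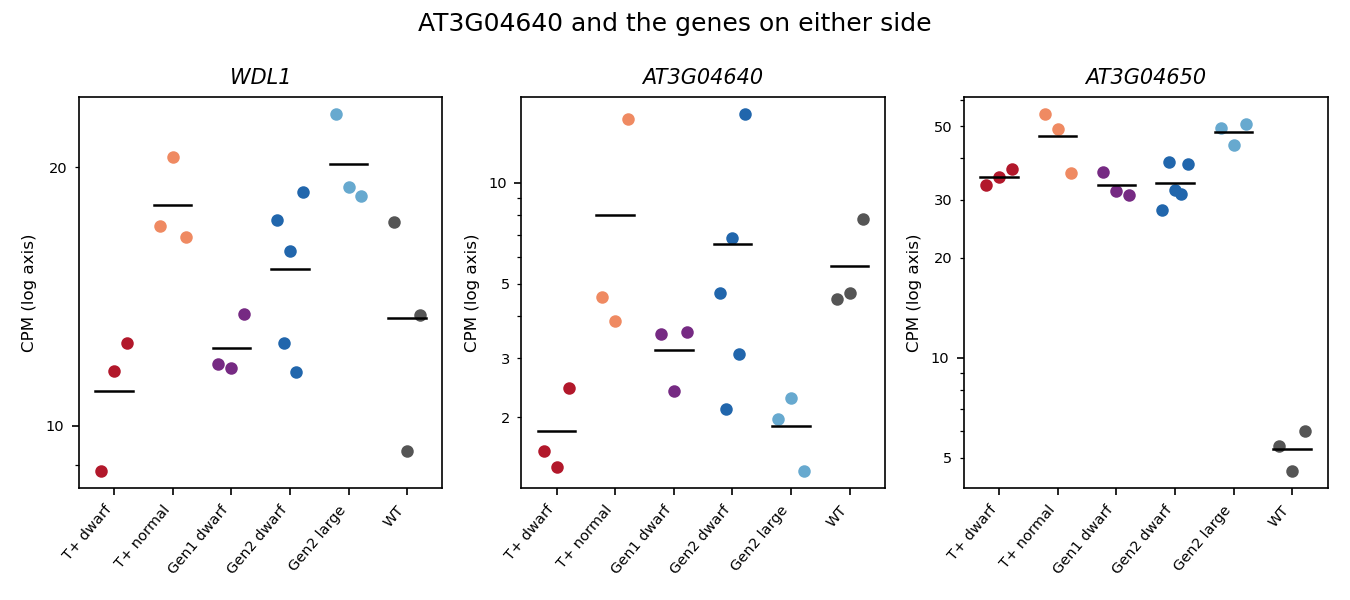
CPM of WDL1, AT3G04640 and AT3G04650 in each sample, on log axes whose range differs between panels, with group means as lines. AT3G04650 is at 4.57 to 6.00 in WT and above 27.8 elsewhere, and AT3G04640 shows no such split.

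Pathway lists around the members were compared on the same interaction, where 0.654% of the 21703 tested genes were called by edgeR (adjusted p under 0.05), 0.253% higher and 0.401% lower. The lists were chosen with earlier results of these data known, so their calls are no independent support. Of the nitrate list, 2 of 29 tested genes were called lower and none higher, with a median of −0.36 against −0.01 over all tested genes. These were NIA1, a nitrate reductase (−1.41 ± 0.26, edgeR adjusted p = 0.0210), and LBD38, a repressor of nitrogen response genes (−1.46 ± 0.33, adjusted p = 0.0461). Of the sugar starvation list, 1 of 16 was called lower, KFB20, a kelch repeat F-box gene (−3.81 ± 0.63, adjusted p = 0.0165), with a list median of −0.97. Of the clock list, 1 of 18 was called lower, RVE1 (−1.32 ± 0.30, adjusted p = 0.0461). No gene was called of 6 tested BT partners, which include CUL3A and CUL3B, nor of the 7 of the SnRK1 and HSPRO list. By edgeR, unadjusted p was under 0.05 in 0 and 1 of them, against 2726 of all 21703 tested genes. DESeq2 also called 0 in each of these lists. NIA1 lost its call without T+ dwarf 2, T+ normal 1, Gen2 large 1 or Gen2 large 2 (adjusted p up to 0.0770), and KFB20 without T+ dwarf 2 or any Gen2 large sample (up to 0.0602). LBD38 and RVE1 were called in 2 and 3 of 14 fits that left out 1 library, with adjusted p up to 0.131 and 0.123. With the replicate number as a block, edgeR's adjusted p was 0.0631 for LBD38 and 0.150 for RVE1. RVE1 also lost its call with no filter on low counts and with only the groups compared.

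KFB20 had 31.4, 20.9 and 46.9 CPM in T+ normal and 8.17, 6.90 and 6.75 CPM in T+ dwarf, and 3.50, 2.91 and 3.32 CPM in Gen2 large. Its groups did not overlap in T+ or in Gen2, where the dwarf samples spanned 4.17 to 18.3 CPM. HSPRO1, the close relative of HSPRO2, ranged from 0.738 to 2.53 CPM over the 20 samples. It was at 1.07 to 1.64 CPM in Gen2 dwarf and at 0.738 to 0.992 CPM in Gen2 large, without overlap. In T+ it overlapped, at 0.886 to 1.57 CPM in dwarf and 0.971 to 1.845 CPM in normal plants.

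Within T+, where 15% of all tested genes were called (7.21% higher and 7.79% lower), nitrate list genes were called 8 lower and 3 higher of 29, with a median of −0.11. They include UPM1 of siroheme synthesis (−1.28 ± 0.19, edgeR adjusted p = 0.000571), the nitrite reductase gene NIR1 (−1.14 ± 0.18, adjusted p = 0.000748), LBD39 (−1.23 ± 0.22) and AT1G25550 (−1.10 ± 0.20), called in all 6 fits without 1 library. The nitrate count fell from 11 to 7 without T+ dwarf 1. Sugar starvation genes were called 3 lower and 2 higher of 16, among them AT5G22920, KFB20 and AT3G15450 lower and BCAT2 higher, and clock genes 5 higher and 1 lower of 18, with CCA1 higher by 1.03 ± 0.21 (adjusted p = 0.00266) and CHE lower. Most of the called clock genes went opposite to BT2 and BT5, which were lower in T+ dwarf. The part of the clock genes in the result was not tested. The clock count was 2 without T+ dwarf 3, and the 2 calls of BT partners, CUL3A and CUL3B, were lost without T+ dwarf 1, T+ dwarf 3 or T+ normal 3.

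In Gen2, where 13.5% of all tested genes were called (8.67% higher and 4.79% lower), 8 of 29 nitrate genes and 6 of 16 sugar starvation genes were called higher and none lower, with medians of 0.16 and 0.61. SEN1 (1.61 ± 0.36, edgeR adjusted p = 0.00734) and BCAT2 (1.68 ± 0.36, adjusted p = 0.00632) kept their calls in all 8 fits without 1 library, and KFB20 (1.63 ± 0.43, adjusted p = 0.0203) lost it without any 1 of the Gen2 large samples. The nitrate transporter gene NRT2.5 was at 0.225 to 0.413 CPM in Gen2 dwarf and at 0.00923, 0 and 0.0154 CPM in Gen2 large, under the level of 3 counts, so no fold is given. The nitrate and sugar starvation counts both fell to 2 without Gen2 large 1. Of 18 clock genes, PRR9 and RVE1 were called higher, in 5 and 3 of 8 fits without 1 library, and neither was called without Gen2 dwarf 4, Gen2 large 2 or Gen2 large 3. Of the BT partners, 1 gene, TERT, was called lower (in 2 of 8 fits without 1 library). None of the SnRK1 and HSPRO list was called by edgeR or DESeq2. By edgeR, 2 of its 7 genes had an unadjusted p under 0.05, against 6545 of all 21703 tested genes.

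Against WT, Gen1 dwarf had 1 of 29 nitrate genes called lower, NIR1 (−0.70 ± 0.18, edgeR adjusted p = 0.0459), 1 of 16 sugar starvation genes higher, SEN1 (1.64 ± 0.38, adjusted p = 0.0318), and 1 of 18 clock genes higher, RVE8 (0.91 ± 0.22, adjusted p = 0.0397). The background was 1.62% higher and 0.396% lower. Each of the 3 calls held in only 1 of 6 fits that left out 1 library, NIR1 and RVE8 without WT 2 and SEN1 without WT 3, with adjusted p up to 0.174. In T+ normal against WT, where 1.34% of all genes were called (0.534% higher and 0.802% lower), LBD39 of the nitrate list (0.97 ± 0.22, adjusted p = 0.0333) and AT5G22920, AT3G15450 and KFB20 of the sugar list were higher and BCAT2 was lower, and all 5 calls were lost without WT 2. In Gen2 large against WT, where 0.963% were called (0.12% higher and 0.843% lower), NRT2.5, PRR9 and PRR5 were lower, and all 3 calls were lost without any 1 of the Gen2 large samples or without WT 2.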

How the data were processed

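RNA of aboveground tissue was sequenced in 20 samples. The authors deposited raw counts for each gene and sample. The submitters' processing notes name Trim Galore 0.4.1, STAR 2.7.0a and the build TAIR10. No source used here names the counting program or its use of strand. Counts in 5 lines without a gene were left out (unassigned reads 0.776 to 1.14% and ambiguous reads 0.264 to 0.360% of gene counts).

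In R 4.3.3, edgeR 4.0.16 (TMM factors 0.912 to 1.05, filterByExpr with a minimum count of 10, robust quasi-likelihood tests, 14 residual degrees of freedom) fitted all 20 samples with a term per group. P-values were adjusted by Benjamini and Hochberg's method over the 21703 genes tested, and a gene is called under 0.05. SE is from the quasi-likelihood F, SD is over samples, and correlations use log2 CPM with a prior count of 2. DESeq2 1.42.0 was an alternative. The simulation changed 100 genes per fold, ran on 21509 genes and gave 7 false calls. Coordinates are from TAIR10.1, where 32548 of 34262 loci were found.

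The 9 genes, the lists, the motifs and the likeness rule were chosen with earlier results of these data known. Named are the 9 genes, up to 4 called genes of a list with the lowest p in a comparison, the 3 genes most like each member and the neighbours of AT3G04640. AT4G37608, HSPRO1 and further list genes named as called were added after their values were seen. TAC1, NRT2.2, NRT2.4 and AT3G25790 did not pass the filter.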

Additional observations from a re-analysis of the deposited data

Results flagged for a closer look

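AT5G19120 in Gen2 dwarf 3, at 28.2 CPM, was flagged as above the other 4 Gen2 dwarf samples by Dixon's rule (95% level) on CPM. The rule was not applied to log2 CPM. For this gene, chosen on T+ and Gen2 samples, the flag is a description and not a test. Chance flags about 1 in 20 groups, and 16 genes were checked in Gen2 dwarf.

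The dwarf effects of T+ and Gen2 differed in BT2 (−3.74), BT5 (−4.17), AT5G19120 (−3.44), OXS3 (−3.62), HSPRO2 (−4.38) and AT3G04640 (−3.93), as log2 differences between the effects. These 6 genes were chosen on that difference, and no test is given. Among genes of the lists, edgeR's quasi-likelihood test called the same difference (adjusted p under 0.05) in NIA1 (−1.41), LBD38 (−1.46), KFB20 (−3.81) and RVE1 (−1.32). The lists were chosen with earlier results of these data known, so these calls are no independent support. None of them held in all 14 fits without 1 library, and LBD38 and RVE1 also lost theirs with the replicate number as a block.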

How the results depend on the processing

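Of the 9 genes, none was called in Gen1 dwarf against WT under any of the 13 settings tried. The sign of that difference turned in BT5 without Gen1 dwarf 2 (0.21), Gen1 dwarf 3 (0.05) or WT 3 (0.55), in AT5G19120 without Gen1 dwarf 2 (0.11) or WT 3 (0.14), and in OXS3 without WT 3 (0.20), and the cause was not tested. Over all such fits the range was −0.72 to 0.55 in BT5, −0.45 to 0.14 in AT5G19120 and −0.40 to 0.20 in OXS3.

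Counts of called genes moved more. DESeq2 called 1143 genes in Gen1 dwarf against WT (edgeR 437), 639 in the interaction (142), 1155 in T+ normal against WT (290) and 743 in Gen2 large against WT (209). With only the groups compared, edgeR called 252, 52 and 119 in the 3 comparisons with WT, in that order, and 2014 in T+ dwarf against T+ normal (3255 with all samples). The labels do not say whether replicate numbers pair the samples. Same-numbered samples had correlations of deviations of −0.44 to 0.39 over 45 pairs (median 0.02), above 0.1 in 8 of them. Such a range cannot show whether some same-numbered samples share a batch, and this was not tested. With the number as a block, 93 genes had a called interaction and 1356 (of 2920) a called Gen2 dwarf effect.

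With 1 library left out at a time, called genes ran from 16 to 291 in the interaction, from 1927 to 2653 for the dwarf effect in T+ and from 1186 to 2988 for that in Gen2. Against WT they ran from 71 to 681 (Gen1 dwarf), 36 to 559 (T+ normal) and 10 to 326 (Gen2 large). Fewer samples enter those fits.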
